A study of Homo sapiens with 12 samples.

Results

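LMO1, F2RL1, NECTIN4, UST, LRRTM1 and CHRNA1 are 6 protein-coding genes picked from RNA sequencing of A172 glioblastoma cells for differences in read count between siRNA-2 and siRNA-1 that are among the largest in the data, with both siRNAs directed at the ultraconserved region uc.110. They were 6 of 43708 gene intervals used and of 24644 with enough reads to be tested. The picking used the difference between the siRNAs itself, so that difference is given below as a description with no test. The cells with siRNA-2, with siRNA-1 and with a scrambled siRNA gave 4 libraries each, 12 in all. A172 is a human glioblastoma line, labelled as adherent glioma cells of WT genotype, and every library, the scrambled ones included, came from cells given siRNA and a Lipofectamine reagent. Each well received 3 µL of a 20 µM siRNA with 9 µL of the reagent for 6 h, and RNA for sequencing was sent on day 2 after transfection. No untransfected cells are among the samples, all samples come from 1 line, and the sources used here give the sequence of neither siRNA. Whether the 4 libraries of a group stem from separate cultures is not in the labels, and p-values here therefore reflect the variation among these libraries alone, which could be technical.

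The 6 genes belong to different pathways. LMO1 encodes a LIM-only protein that binds no DNA itself but joins transcription factors into complexes, and it is an oncogene in T-cell leukaemia and neuroblastoma. F2RL1 encodes protease-activated receptor 2, a G-protein-coupled receptor that trypsin-like proteases switch on by cutting its outer end. NECTIN4 encodes an immunoglobulin-like adhesion molecule of epithelial junctions that is a drug target in bladder cancer, and UST encodes the enzyme that adds sulfate to uronic acid residues of chondroitin and dermatan sulfate. LRRTM1 encodes a leucine-rich repeat protein of the postsynaptic membrane that binds neurexins, and CHRNA1 encodes the acetylcholine-binding alpha subunit of the nicotinic receptor of muscle. Small interfering RNAs guide Argonaute proteins to RNAs that match them, and studies commonly use a pair of siRNAs of different sequence against the same RNA.

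The genes lie on 5 chromosomes (hg38). LMO1 lies on the minus strand at chr11:8224179-8277878, F2RL1 on the plus strand at chr5:76818933-76835315, NECTIN4 on the minus strand at chr1:161070574-161090277 and UST on the plus strand at chr6:148745890-149080114. LRRTM1, at chr2:80288351-80305005, and CHRNA1, at chr2:174747591-174764472, are both on the minus strand of chromosome 2. Promoter windows from 250 bases before to 50 bases after the RefSeq start (GRCh38.p14) matched 6 of 6 genes. The windows of LRRTM1 and CHRNA1 are shown because both genes had their highest counts with siRNA-1 and their lowest with scrambled siRNA, and that of F2RL1 because it stood first in the other direction. LRRTM1 is shown at chr2:80304703-80305002 on the minus strand, CHRNA1 at chr2:174764423-174764722 on the minus strand and F2RL1 at chr5:76818780-76819079 on the plus strand, each 5′ to 3′. Capitals mark matches to 8 short motifs searched on both strands, and no match in these windows overlapped another. The motifs were the interferon-stimulated response element (ISRE, GAAA and GAAA with any 2 bases between them), the gamma-activated site (GAS, TTCNNNGAA), the E-box (CANNTG), the TATA box (TATAAA), the CCAAT box (CCAAT), the GC box (GGGCGG), the AP-1 site (TGANTCA) and the CRE (TGACGTCA).
LRRTM1: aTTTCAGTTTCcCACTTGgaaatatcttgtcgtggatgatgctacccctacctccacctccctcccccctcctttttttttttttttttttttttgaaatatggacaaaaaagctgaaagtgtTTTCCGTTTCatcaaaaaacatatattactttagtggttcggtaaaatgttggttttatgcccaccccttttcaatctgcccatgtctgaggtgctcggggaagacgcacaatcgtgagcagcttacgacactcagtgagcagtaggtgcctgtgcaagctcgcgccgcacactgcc
CHRNA1: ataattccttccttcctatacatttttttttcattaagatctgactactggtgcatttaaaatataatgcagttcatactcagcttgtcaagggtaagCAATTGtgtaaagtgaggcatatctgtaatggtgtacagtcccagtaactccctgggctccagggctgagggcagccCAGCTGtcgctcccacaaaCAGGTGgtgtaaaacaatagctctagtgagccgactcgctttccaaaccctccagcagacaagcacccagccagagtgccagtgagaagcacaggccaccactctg
F2RL1: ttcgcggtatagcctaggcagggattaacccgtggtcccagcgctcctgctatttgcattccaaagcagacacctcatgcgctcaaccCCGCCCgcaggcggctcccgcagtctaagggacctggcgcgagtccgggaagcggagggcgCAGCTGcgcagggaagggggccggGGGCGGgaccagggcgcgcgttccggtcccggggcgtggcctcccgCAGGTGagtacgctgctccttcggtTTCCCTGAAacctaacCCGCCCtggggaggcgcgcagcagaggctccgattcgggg

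With positions counted from 0 at the gene's first base, LRRTM1 held ISRE letters starting at -249 and -127 and an E-box at -238. CHRNA1 held E-boxes at -152, -75 and -56. F2RL1 held a GAS match at -6, E-boxes at -101 and -31, and GC boxes at -162, -77 and 11. Of the 35116 RefSeq promoter windows, 3.57% held an ISRE match, 7.66% a GAS match, 68.7% an E-box, and 15786 windows held a GC box. LRRTM1 and CHRNA1 shared no motif of the 8 other than the E-box. A match is a run of letters and not a known site, and the start used for LMO1 lies 9091 bases from the start of its interval in the deposited table.

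The libraries held between 42951911 and 53148746 reads in gene intervals. Ribosomal RNA took 1.81% to 5.46% of reads in 10 libraries, 9.29% in siRNA-2 replicate 2 and 16.2% in siRNA-1 replicate 3. Scrambled replicate 1 had reads in 1572 intervals that were empty in every other library, against a median of 116 in the other 11. The targeted region uc.110, chr2:236162738-236162980, held 3, 0, 4 and 0 reads with siRNA-2, 2, 0, 1 and 2 with siRNA-1 and 4, 0, 1 and 6 with scrambled siRNA, so a difference in it was not detectable at this depth. All 8 glioma and mesenchymal markers checked averaged at least 1 CPM (reads scaled to a library of 1000000, with library sizes adjusted by the TMM method), among them VIM, SOX2 and GFAP. They summed to 3426 to 3634 CPM with siRNA-2, 3009 to 3342 with siRNA-1 and 3896 to 4260 with scrambled siRNA, with no overlap, and the part of this in the levels of the 6 genes was not tested. Most of the sum came from VIM, CD44 and NES, with means of 2086, 714 and 442.5 CPM over the 12 libraries. SOX2 and GFAP averaged 14.7 and 7.41 CPM. In bulk RNA, fewer cells of a kind and less RNA per cell cannot be told apart.

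Between the siRNAs, F2RL1, NECTIN4 and UST were higher with siRNA-2, and LMO1, LRRTM1 and CHRNA1 were higher with siRNA-1. The sizes ran from 2.72-fold for UST to 10.2-fold for LMO1. Among 12515 protein-coding genes with an average log2 CPM of at least 1, F2RL1, NECTIN4 and UST ranked 1, 2 and 4 for siRNA-2, with TGFA, at a log2 fold change of 1.63, in place 3 and ESM1, at 1.42, just behind UST. LMO1, LRRTM1 and CHRNA1 ranked 2, 6 and 8 for siRNA-1, with OCM2 (-4.01), BHLHA15 (-3.28), ALDOC (-1.69), VTN (-1.68) and SERPINA5 (-1.59) among them and CGB5 (-1.39) just behind CHRNA1. All 6 were past an adjusted p of 0.05 in edgeR's quasi-likelihood test in this comparison, where 32.9% of the genes tested were. The 4 libraries of one siRNA lay wholly on one side of those of the other for 6 of 6 genes, and for 32.1% of the genes tested. Both figures follow from how the genes were picked.

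**Figure D1:**
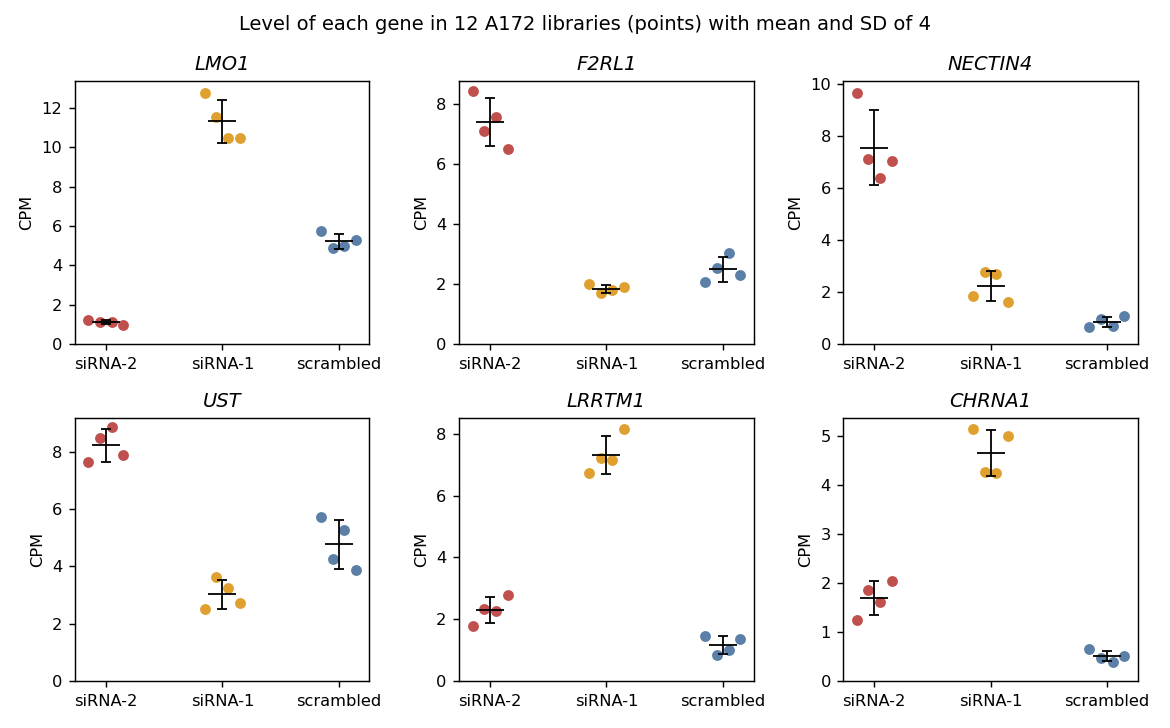
CPM (vertical axes, from 0) of the 6 genes in siRNA-2, siRNA-1 and scrambled libraries; points are single libraries, and bars are the mean and SD of 4. The scrambled libraries sit between both siRNA groups for LMO1, F2RL1 and UST and below both for NECTIN4, LRRTM1 and CHRNA1.

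LMO1, the transcriptional cofactor, had the widest spread between the siRNAs. It had 1.23, 1.12, 1.13 and 0.971 CPM in the siRNA-2 libraries (50 to 60 reads), 12.8, 11.5, 10.5 and 10.5 CPM in the siRNA-1 libraries (449 to 577 reads) and 5.72, 4.89, 4.98 and 5.31 CPM in the scrambled libraries (228 to 258 reads). Every siRNA-2 library was low, every siRNA-1 library was high, and the scrambled libraries lay between them with no overlap. The means were 1.11 ± 0.107 CPM with siRNA-2, 11.3 ± 1.09 with siRNA-1 and 5.23 ± 0.378 with scrambled siRNA (SD, n = 4 each). The log2 fold change was -3.35 (SE 0.11) for siRNA-2 against siRNA-1, -2.23 (SE 0.11) for siRNA-2 against scrambled and 1.11 (SE 0.09) for siRNA-1 against scrambled.

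F2RL1, the protease-activated receptor, was high in the siRNA-2 libraries alone. It had 8.44, 7.12, 7.58 and 6.50 CPM with siRNA-2, 1.99, 1.70, 1.80 and 1.91 with siRNA-1 and 2.09, 2.55, 3.04 and 2.31 with scrambled siRNA. The siRNA-1 and scrambled libraries did not overlap, but the highest siRNA-1 library, with 90 reads, and the lowest scrambled one, with 94 reads, were close. Means were 7.41 ± 0.814 CPM with siRNA-2, 1.85 ± 0.130 with siRNA-1 and 2.50 ± 0.411 with scrambled siRNA (SD, n = 4 each). The log2 fold change was 2.00 (SE 0.12) for siRNA-2 against siRNA-1, 1.56 (SE 0.12) for siRNA-2 against scrambled and -0.44 (SE 0.13) for siRNA-1 against scrambled.

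UST, the uronyl sulfotransferase, also lay on opposite sides of scrambled with each siRNA, at a smaller distance. Its siRNA-2 libraries had 7.65, 8.50, 8.88 and 7.90 CPM, its siRNA-1 libraries 2.52, 3.62, 3.24 and 2.73 CPM and its scrambled libraries 5.72, 4.27, 5.27 and 3.87 CPM. Each siRNA-2 library lay above each scrambled library and each siRNA-1 library below. The group means were 8.23 ± 0.562 CPM with siRNA-2, 3.03 ± 0.498 with siRNA-1 and 4.78 ± 0.859 with scrambled siRNA (SD, n = 4 each). Log2 fold changes were 1.44 (SE 0.12) for siRNA-2 against siRNA-1, 0.78 (SE 0.12) for siRNA-2 against scrambled and -0.66 (SE 0.13) for siRNA-1 against scrambled.

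NECTIN4, the adhesion molecule, was above scrambled with both siRNAs and highest with siRNA-2. It had 9.66, 7.12, 6.38 and 7.03 CPM in the siRNA-2 libraries, 1.84, 2.78, 2.68 and 1.64 in the siRNA-1 libraries and 0.666, 0.986, 0.694 and 1.08 in the scrambled libraries. The scrambled values rest on 30 to 51 reads, and no library of one group reached the range of another. The means were 7.55 ± 1.45 CPM with siRNA-2, 2.24 ± 0.583 with siRNA-1 and 0.856 ± 0.208 with scrambled siRNA (SD, n = 4 each), and siRNA-2 replicate 1 stood highest. NECTIN4 had log2 fold changes of 1.75 (SE 0.18) for siRNA-2 against siRNA-1, 3.13 (SE 0.20) for siRNA-2 against scrambled and 1.38 (SE 0.21) for siRNA-1 against scrambled.

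LRRTM1, the neurexin-binding synaptic protein, was above scrambled with both siRNAs and highest with siRNA-1. It had 1.78, 2.34, 2.27 and 2.79 CPM with siRNA-2, 6.73, 7.22, 7.16 and 8.16 with siRNA-1 and 1.44, 0.836, 1.00 and 1.36 with scrambled siRNA. The lowest siRNA-2 library, with 77 reads, lay near the highest scrambled one, with 65 reads, while the siRNA-1 libraries stood well above both groups. Mean levels were 2.30 ± 0.414 CPM with siRNA-2, 7.32 ± 0.601 with siRNA-1 and 1.16 ± 0.287 with scrambled siRNA (SD, n = 4 each). Its log2 fold changes were -1.67 (SE 0.14) for siRNA-2 against siRNA-1, 0.99 (SE 0.16) for siRNA-2 against scrambled and 2.66 (SE 0.15) for siRNA-1 against scrambled.

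CHRNA1, the muscle receptor subunit, had the same order of groups as LRRTM1. It had 1.25, 1.85, 1.62 and 2.04 CPM with siRNA-2 (54 to 105 reads), 5.14, 4.27, 4.25 and 4.99 with siRNA-1 (182 to 238 reads) and 0.643, 0.472, 0.388 and 0.508 with scrambled siRNA (19 to 29 reads). The 3 groups were separate, with the siRNA-1 libraries highest and the scrambled ones lowest. Its means were 1.69 ± 0.339 CPM with siRNA-2, 4.66 ± 0.468 with siRNA-1 and 0.503 ± 0.106 with scrambled siRNA (SD, n = 4 each). CHRNA1 had log2 fold changes of -1.46 (SE 0.15) for siRNA-2 against siRNA-1, 1.76 (SE 0.19) for siRNA-2 against scrambled and 3.21 (SE 0.18) for siRNA-1 against scrambled.

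Against scrambled siRNA, the genes thus fell into 2 kinds. LMO1, F2RL1 and UST lay on opposite sides of scrambled with each siRNA, and NECTIN4, LRRTM1 and CHRNA1 were higher with both. Both comparisons share the scrambled libraries. With siRNA-2, 5 genes were higher and 1 lower past an adjusted p of 0.05, where 56.5% of the genes tested passed, and with siRNA-1, 4 were higher and 2 lower, where 53.7% passed. Libraries did not overlap with scrambled for 6 of 6 genes with either siRNA, and for 52.2% of the genes tested with siRNA-2 and 47.8% with siRNA-1. Calls in opposite directions, as for 3 of the 6, were made for 1.76% of the genes tested (433 of 24644), but genes picked for a wide gap between the siRNAs are more open to them. Nothing is read from these shares, since the siRNA libraries chose the genes.

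**Figure D2:**
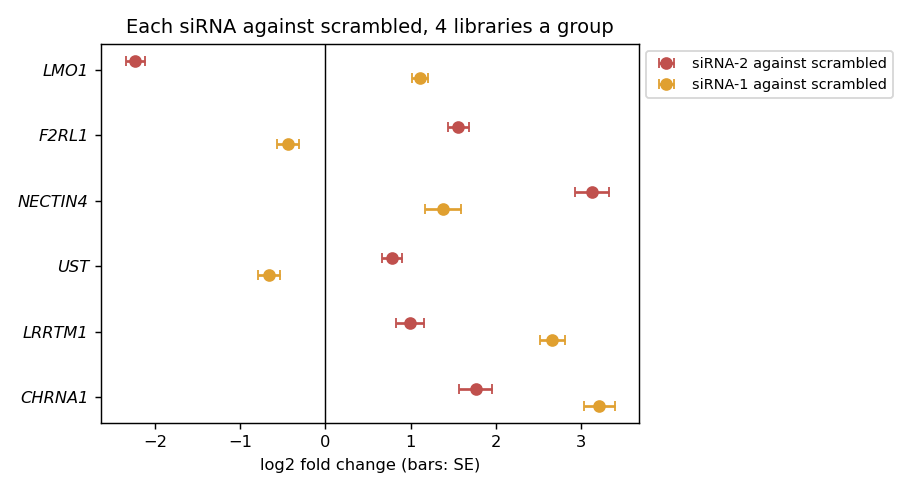
Log2 fold change (horizontal axis) of each gene with siRNA-2 and with siRNA-1, both against scrambled siRNA; bars are SE, 4 libraries a group. LMO1, F2RL1 and UST have points on both sides of 0, and NECTIN4, LRRTM1 and CHRNA1 have both points above 0.

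With 4 libraries a group, the mean of both siRNAs against scrambled is uncorrelated with the gap between them where both siRNA groups vary alike. The siRNA groups did not all vary alike, so the independence of that mean from the picking is approximate. The SD as a percentage of mean CPM, siRNA-2 then siRNA-1, was close for LMO1 (9.562% and 9.618%). It was lower with siRNA-2 for UST (6.828% and 16.44%) and NECTIN4 (19.18% and 26.09%). It was higher with siRNA-2 for LRRTM1 (18.03% and 8.214%), CHRNA1 (20.07% and 10.05%) and F2RL1 (10.99% and 7.009%). The contrast asks whether scrambled lies midway on the log2 scale, and was tested with edgeR's quasi-likelihood test and Benjamini-Hochberg adjustment over all 24644 genes, of which 58.3% passed. For the 6 genes 5 passed, 4 higher and 1 lower. CHRNA1 rose by 2.48 on the log2 scale (SE 0.17, adjusted p = 1.8e-12), LRRTM1 by 1.83 (SE 0.14, adjusted p = 2.84e-11) and NECTIN4 by 2.26 (SE 0.19, adjusted p = 8.41e-09). F2RL1 had 0.56 (SE 0.11, adjusted p = 7.81e-05) and LMO1 -0.56 (SE 0.09, adjusted p = 4.13e-06). For both genes the siRNAs lay on opposite sides of scrambled, so these values give the midpoint and no shared direction. UST had 0.06 (SE 0.11, adjusted p = 0.634), so no departure from the midpoint was shown for it, and its sign turned when siRNA-1 replicate 2 (-0.01) or scrambled replicate 4 (-0.02) was left out. On a scale from siRNA-1 at 0% to siRNA-2 at 100% of the log2 distance, scrambled lay at 33.3% for LMO1, 21.8% for F2RL1 and 45.6% for UST, and outside it at -78.7% for NECTIN4, 159.6% for LRRTM1 and 220.7% for CHRNA1.

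Within groups, siRNA-2 replicate 1 had the highest CPM of its group for LMO1, F2RL1 and NECTIN4 and the lowest for UST, LRRTM1 and CHRNA1. That library was also the smallest of the 12. For none of the 6 genes did that library reach the range of another group. Whether depth had a part in them was not tested.

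Several of the intervals overlap other intervals and may hold reads of other genes. The deposited counts were taken to cover whole gene spans without regard to strand, since the counting program and strand setting were not given. LMO1 holds the opposite-strand RNA LOC105376536 (chr11:8229882-8233985), which covers 214 of the 1690 exon bases of LMO1, and CHESS613 (chr11:8247286-8249430), which covers none. Reads inside LOC105376536 were 50.9%, 53.3%, 60.3% and 44.0% of the LMO1 reads in siRNA-2 libraries, 32.1%, 30.7%, 27.8% and 31.8% in siRNA-1 libraries and 33.7%, 29.0%, 32.8% and 32.3% in scrambled libraries. The share was thus higher with siRNA-2 in 4 of 4 libraries than in any other library. The mean share was 52.2% ± 6.74 with siRNA-2, 30.6% ± 1.93 with siRNA-1 and 31.9% ± 2.08 with scrambled siRNA (SD, n = 4 each). The share was looked at after its values were seen, and its denominator is the LMO1 count that the picking used, so it is given with no test.

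Outside both intervals, the gap in LMO1 was wider than over the whole interval. The stretch held 22, 23, 11 and 24 reads with siRNA-2, 344, 340, 298 and 300 with siRNA-1 and 154, 149, 149 and 149 with scrambled siRNA. That is 0.405 ± 0.131 CPM with siRNA-2, 6.99 ± 0.547 with siRNA-1 and 3.20 ± 0.157 with scrambled siRNA (SD, n = 4 each). The log2 difference was -4.18 for siRNA-2 against siRNA-1, -3.05 for siRNA-2 against scrambled and 1.12 for siRNA-1 against scrambled. Without strand, reads of LMO1 and of LOC105376536 cannot be told apart where they overlap.

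UST holds 5 other intervals, among them UST-AS1 and UST-AS2. With those taken off, UST averaged 5.78 ± 0.516 CPM with siRNA-2, 1.99 ± 0.245 with siRNA-1 and 3.34 ± 0.734 with scrambled siRNA (SD, n = 4 each). The log2 differences of 1.55, 0.81 and -0.73, for siRNA-2 against siRNA-1, siRNA-2 against scrambled and siRNA-1 against scrambled, were close to those of the whole gene. NECTIN4-AS1, inside NECTIN4, held 0 to 4 reads a library, and no other interval used overlapped F2RL1 or CHRNA1.

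LRRTM1 lies wholly inside CTNNA2, the gene of an adhesion-linked catenin of neurons, on the opposite strand. The LRRTM1 interval held 23.8% of the CTNNA2 reads with siRNA-2, 36.7% with siRNA-1 and 11.3% with scrambled siRNA. Outside LRRTM1, CTNNA2 had 6.65, 6.80, 7.89 and 8.23 CPM in siRNA-2 libraries, 12.9, 12.7, 12.5 and 12.6 CPM in siRNA-1 libraries and 10.2, 7.83, 8.86 and 9.46 CPM in scrambled libraries. Its siRNA-1 libraries were thus above all others, and its siRNA-2 and scrambled libraries overlapped. The log2 difference in that stretch was -0.78 for siRNA-2 against siRNA-1 and 0.49 for siRNA-1 against scrambled (exact two-sided permutation p = 0.0286 each, the smallest possible), and -0.30 for siRNA-2 against scrambled (exact p = 0.0857). How far reads of CTNNA2 add to the LRRTM1 count was not tested.

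**Figure D3:**
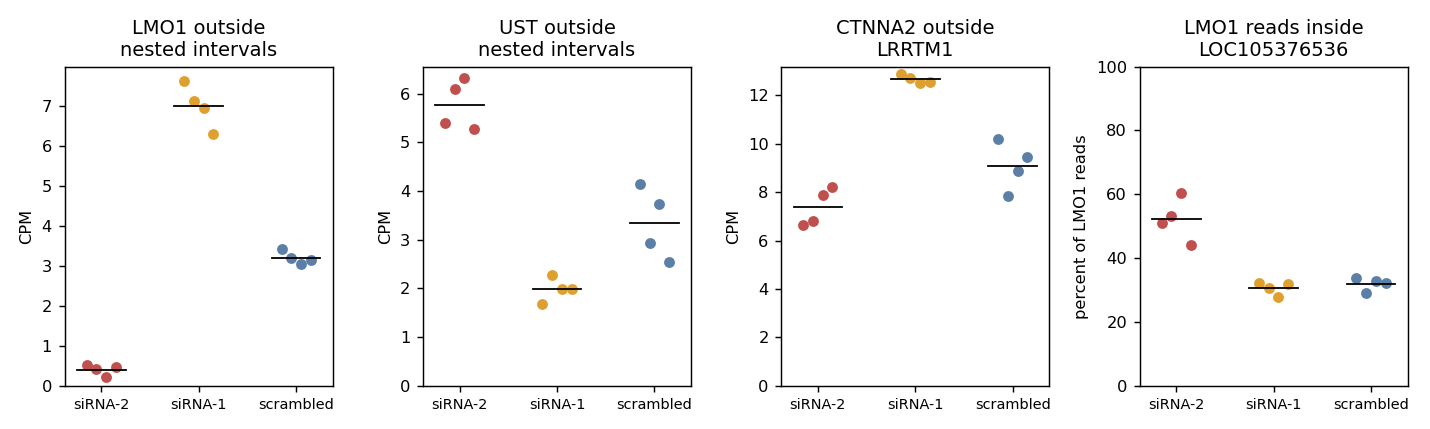
CPM (vertical axes, from 0) outside the intervals nested in LMO1 and UST and of CTNNA2 outside LRRTM1, and the share of LMO1 reads that fall inside LOC105376536 (percent), in siRNA-2, siRNA-1 and scrambled libraries; points are libraries and lines are means of 4. The share is 44.0% to 60.3% with siRNA-2, above the 27.8% to 33.7% of every other library.

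Lists of 132 genes around the 6, of which 104 were tested, gave the setting of each. In siRNA-2 against siRNA-1, 17 were higher, 28 lower and 59 not past an adjusted p of 0.05. That is 43.3% past the threshold, beside 32.9% of all 24644 genes tested, of which 3910 were higher and 4187 lower with a median log2 fold change of -0.001, and beside 41.3% of the 15157 protein-coding genes tested. All adjusted p-values in this and the next 3 paragraphs come from edgeR's quasi-likelihood test with Benjamini-Hochberg adjustment. Where an interval is said to overlap another, reads in the stretch they share cannot be told apart. No tested gene of these lists had a gap between the siRNAs as large as the smallest of the 6. Nothing is read from this, since the 6 were picked for gaps among the largest in the data.

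The list around LMO1 holds genes of LIM-only proteins and their partners, and others such as RET. Of 13 genes tested in it, 3 were higher and 5 lower with siRNA-2 than with siRNA-1, with a median log2 fold change of -0.13. SSBP3 encodes a stabilising partner of LIM-binding complexes, and its interval overlaps MRPL37. SSBP3 was lower with siRNA-2 than with siRNA-1 (-0.44, SE 0.04, adjusted p = 8.14e-09). RET, a receptor kinase gene, was also lower (-1.14, SE 0.19, adjusted p = 4.48e-05). Against scrambled siRNA, SSBP3 had 0.02 with siRNA-2 and 0.47 with siRNA-1, and RET had 0.53 and 1.66. GATA3, a transcription factor gene whose interval overlaps LOC107984204, was higher with siRNA-2 than with siRNA-1 (1.13, SE 0.22, adjusted p = 2.15e-04). The paralogs LMO2 (-0.20, SE 0.07, adjusted p = 0.0297) and LMO4 (-0.16, SE 0.05, adjusted p = 0.0182) passed by a small margin, and LMO3 had too few reads. The interval of LMO4 overlaps CHESS171. LMO2 no longer passed without any 1 of 7 siRNA libraries, all but siRNA-1 replicate 2 (-0.21 to -0.16), and LMO4 without siRNA-2 replicate 2 (-0.14), siRNA-1 replicate 3 (-0.11) or siRNA-1 replicate 4 (-0.14). Both LMO2 and LMO4 were higher than scrambled with siRNA-2 (0.88 and 0.15) and with siRNA-1 (1.09 and 0.31), all past the threshold, unlike LMO1, which lay below scrambled with siRNA-2.
Of 16 protease-activated receptors, their proteases and their transducers, 2 were higher and 5 lower, with a median of -0.06. PLCB3, a phospholipase that such receptors activate, was higher with siRNA-2 than with siRNA-1 (0.23, SE 0.03, adjusted p = 1.45e-05). So was PROCR, the protein C receptor gene, with an interval that overlaps MMP24-AS1-EDEM2 (0.24, SE 0.05, adjusted p = 2.12e-04). ARRB1, an arrestin gene, was lower with siRNA-2 than with siRNA-1 (-0.30, SE 0.06, adjusted p = 1.32e-04). F2R, which encodes protease-activated receptor 1 and lies next to F2RL1, had -0.10 (SE 0.05, adjusted p = 0.144). F2RL2 was lower with siRNA-2 (-0.83, SE 0.29, adjusted p = 0.0281), but its interval overlaps IQGAP2, and F2RL3 had too few reads. The call of F2RL2 was lost without siRNA-2 replicate 1 or 4 (-0.71 each) or without siRNA-1 replicate 1 (-0.75), 2 (-0.81) or 3 (-0.79).

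Of 14 nectins, nectin-like molecules and partners, 3 were higher and 2 lower with siRNA-2 than with siRNA-1, with a median of 0.02. NECTIN1 was higher with siRNA-2 (0.51, SE 0.07, adjusted p = 2.61e-06). CADM4, a nectin-like molecule whose interval overlaps LOC105372411, was lower (-0.24, SE 0.03, adjusted p = 6.79e-06). Against scrambled siRNA, NECTIN1 had 0.11 with siRNA-2 and -0.39 with siRNA-1, and CADM4 had 0.65 and 0.88. TIGIT, an immune receptor for nectins, was also called (-0.25, SE 0.05, adjusted p = 2.30e-04), but its interval overlaps ZBTB20. NECTIN2 had -0.10 (SE 0.04, adjusted p = 0.0637) and NECTIN3 0.09 (SE 0.06, adjusted p = 0.246), and NECTIN2 passed without siRNA-2 replicate 1 (-0.13) or siRNA-1 replicate 1 (-0.12).
The list around UST covers chondroitin and dermatan sulfate synthesis, its pathway. Of 21 genes tested in it, 2 were higher and 11 lower with siRNA-2, with a median of -0.13. The 11 include HS2ST1 (-0.13, SE 0.05, adjusted p = 0.0394), which encodes a sulfotransferase of heparan sulfate instead. XYLT2, which starts the chain, was lower with siRNA-2 than with siRNA-1 (-0.40, SE 0.04, adjusted p = 5.2e-09). So was CHPF2, a chain-lengthening factor whose interval overlaps SMARCD3 (-0.36, SE 0.03, adjusted p = 1.64e-08). CHST3, a chondroitin 6-sulfotransferase gene, was higher with siRNA-2 than with siRNA-1 (0.32, SE 0.04, adjusted p = 4.75e-07). Against scrambled siRNA, CHST3 had -0.17 with siRNA-2 and -0.49 with siRNA-1. In the same order, XYLT2 had 0.51 and 0.91, and CHPF2 had 0.11 and 0.47. UST, higher with siRNA-2, thus lay on the side of 2 of the 13 genes called.

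Of 24 leucine-rich and other synaptic adhesion genes, 4 were higher and 3 lower with siRNA-2 than with siRNA-1, with a median of 0.06. One of the 3 lower genes is CTNNA2, whose whole interval (-1.04, SE 0.08) includes the LRRTM1 reads that the picking used, so its call is no independent result, and outside LRRTM1 the difference was -0.78. FLRT2, which encodes a leucine-rich adhesion protein, was higher with siRNA-2 than with siRNA-1 (0.85, SE 0.08, adjusted p = 2.14e-08). So was the glypican gene GPC4 (0.35, SE 0.07, adjusted p = 3.69e-04). The paralogs of LRRTM1 did not pass: LRRTM2 had 0.14 (SE 0.06, adjusted p = 0.0634), LRRTM3, which overlaps CTNNA3 and LOC101928961, -0.38 (SE 0.36, adjusted p = 0.461) and LRRTM4 -0.26 (SE 0.23, adjusted p = 0.409). LRRTM2 passed without siRNA-2 replicate 1 or 2 (0.18 each) or scrambled replicate 1 (0.15), and LRRTM3 turned to 0.06 without siRNA-1 replicate 4.
Of 16 nicotinic receptor subunits and endplate genes, 3 were higher and 2 lower, with a median of 0.12. ACHE, the acetylcholinesterase gene, with an interval that overlaps CHESS3810, was higher with siRNA-2 than with siRNA-1 (1.14, SE 0.11, adjusted p = 1.03e-08). CHRNE, another muscle receptor subunit, was also higher (0.67, SE 0.04, adjusted p = 3.38e-13), and its interval overlaps MINK1. DOK7, an adaptor of the muscle endplate kinase, was lower (-0.75, SE 0.07, adjusted p = 2.88e-09). DOK7 lay above scrambled with both siRNAs (0.38 with siRNA-2 and 1.13 with siRNA-1). ACHE averaged 9.11 ± 0.564 CPM with siRNA-2, 4.14 ± 0.583 with siRNA-1 and 1.54 ± 0.235 with scrambled siRNA (SD, n = 4 each), so like CHRNA1 it was above scrambled with both, but highest with siRNA-2. CHRNA5 was lower with siRNA-2 than with siRNA-1 (-0.33, SE 0.08, adjusted p = 0.00152), and its interval overlaps that of CHRNA3. CHRNA5 also lay above scrambled with both (0.19 with siRNA-2 and 0.52 with siRNA-1).

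Of the remaining tested paralogs of CHRNA1, CHRNB2 (0.16, SE 0.06, adjusted p = 0.0547), CHRNB3 (0.69, SE 0.28, adjusted p = 0.0658), CHRNA4 (0.39, SE 0.19, adjusted p = 0.129) and CHRNA9 (-0.70, SE 0.37, adjusted p = 0.16) did not pass, nor did CHRNA3 (-0.19) and CHRNA10 (0.32). The intervals of CHRNB2 and CHRNA10 overlap ADAR and ART1, so their values may hold reads of those genes. CHRNB2 passed without siRNA-2 replicate 1 (0.18), without any 1 scrambled library (0.16 to 0.17) and in several other settings, and CHRNB3 without siRNA-2 replicate 4 (0.84) or scrambled replicate 2 (0.70). CHRND, CHRNG and RAPSN, of the muscle receptor and its anchor, had too few reads to test, and CHRNB1 was not analysed here. The muscle factors MYF5, MYOD1 and MYOG held 0, at most 1 and at most 4 reads a library. The 8 muscle markers summed to 28.7 to 32.4 CPM with siRNA-2, 24.7 to 29.5 with siRNA-1 and 26.9 to 31.0 with scrambled siRNA, and 3 of the 8 averaged at least 1 CPM. The 7 neuron markers, 4 of them at 1 CPM or more, summed to 174.5 to 184 CPM with siRNA-2, 157.6 to 171.5 with siRNA-1 and 124.3 to 131.7 with scrambled siRNA. Most of that sum came from SYN1, with a mean of 122.8 CPM over all libraries. The 7 epithelial markers, also with 4 at 1 CPM or more, summed to 43.5 to 52.3 CPM with siRNA-2, 50.2 to 64.9 with siRNA-1 and 38.9 to 46.6 with scrambled siRNA. The 7 blood and endothelial markers measured summed to 154 to 185 CPM with siRNA-2, 71.5 to 86.8 with siRNA-1 and 40.7 to 48.8 with scrambled siRNA, with CD68 at 35.2 to 180.4 CPM and CD3E at 0 to 4 reads. The part of any such cells in the levels of the 6 genes was not tested.

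**Figure D4:**
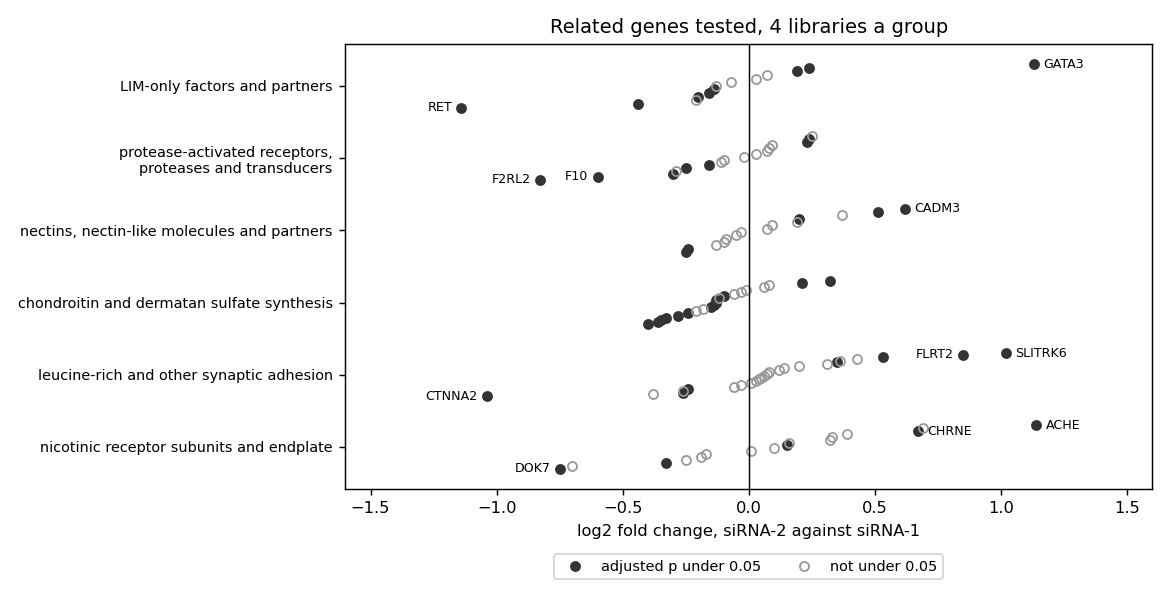
Log2 fold change of siRNA-2 against siRNA-1 (horizontal axis) for the 104 related genes tested, by list; filled points passed an adjusted p of 0.05, and those of at least 0.6 in size are named. Most points lie within 0.5 of 0, and RET, CTNNA2, GATA3, SLITRK6 and ACHE lie beyond 1.

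The 12 nearest tested protein-coding genes were taken, 1 on each side of each gene and not overlapping it, so CTNNA2 was not among them. Of the 12, 3 passed between the siRNAs in edgeR's quasi-likelihood test, beside 41.3% of all protein-coding genes tested. These were SUCLG1, 4118 kb from LRRTM1 (0.41, SE 0.05, adjusted p = 7.19e-07), TAB2, 137.8 kb from UST (0.21, SE 0.05, adjusted p = 0.00115), and CHN1, 33.8 kb from CHRNA1 (-0.25, SE 0.06, adjusted p = 0.00172). ARHGAP30, which ends 603 bases from NECTIN4, differed by 0.09 on the log2 scale (SE 0.13, adjusted p = 0.645), with 3.14 ± 0.486 CPM with siRNA-2, 2.96 ± 0.431 with siRNA-1 and 3.23 ± 0.166 with scrambled siRNA (SD, n = 4 each). The 2 neighbours of LMO1, RIC3 and STK33, had -0.17 (SE 0.08, adjusted p = 0.0992) and 0.10 (SE 0.09, adjusted p = 0.429), and RIC3, whose interval overlaps TUB, passed without siRNA-2 replicate 2 (-0.24). S100Z beside F2RL1, with an interval that overlaps CRHBP, had -0.02 (0.24 without siRNA-1 replicate 2). KLHDC9 beside NECTIN4 had -0.13, SASH1 beside UST 0.08 and WIPF1 beside CHRNA1 0.09. REG1A, 1165 kb from LRRTM1, had 0.61 (SE 0.51). Its means were 0.228 CPM with siRNA-2, 0.149 with siRNA-1 and 0.251 with scrambled siRNA. None of these genes passed the threshold.

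The genes whose pattern over the 12 libraries lay nearest to each of the 6 were found by the root mean square distance of log2 CPM, each gene centred on its own mean, among protein-coding genes. Such nearness is a description, and of the genes named here FAM153A, GDF15, C2orf72 and SERPINA5 have intervals that overlap LOC107986489, MIR3189, LOC112268432 and LOC112268127, in that order. LRRTM1 was nearest to VTN, the vitronectin gene, at a distance of 0.247 log2 units (Pearson r = 0.976 over 12 libraries, which fall into 3 groups), then ALDOC and TRABD2B. CHRNA1 was nearest to VTN (0.382), ARSI (0.390) and TRABD2B (0.403), so LRRTM1 and CHRNA1 shared 2 of their 3 nearest genes. VTN averaged 2.50 ± 0.259 CPM with siRNA-2, 8.01 ± 0.935 with siRNA-1 and 1.17 ± 0.205 with scrambled siRNA (SD, n = 4 each).

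UST was nearest to SEMA3A, which encodes a secreted axon guidance factor, at 0.215, then RGS2 and C2orf72. SEMA3A had log2 fold changes of 1.22 (SE 0.05) for siRNA-2 against siRNA-1, 0.88 (SE 0.05) for siRNA-2 against scrambled and -0.33 (SE 0.05) for siRNA-1 against scrambled, the same signs as UST. F2RL1 was nearest to ESM1, the gene of an endothelial proteoglycan, at 0.296, then GPR1 and PALM3. NECTIN4 was nearest to FAM153A (0.389), GDF15 (0.393) and TNN (0.403). GDF15, a secreted stress cytokine gene, averaged 308 ± 85.5 CPM with siRNA-2, 146 ± 32.9 with siRNA-1 and 37.6 ± 0.983 with scrambled siRNA (SD, n = 4 each). LMO1 had no gene as near: SERPINA5, a protease inhibitor gene, lay at 0.743, RPS6KA2 at 0.848 and the chemokine gene CCL2 at 0.865, each with the order of LMO1 but a smaller gap.

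**Figure D5:**
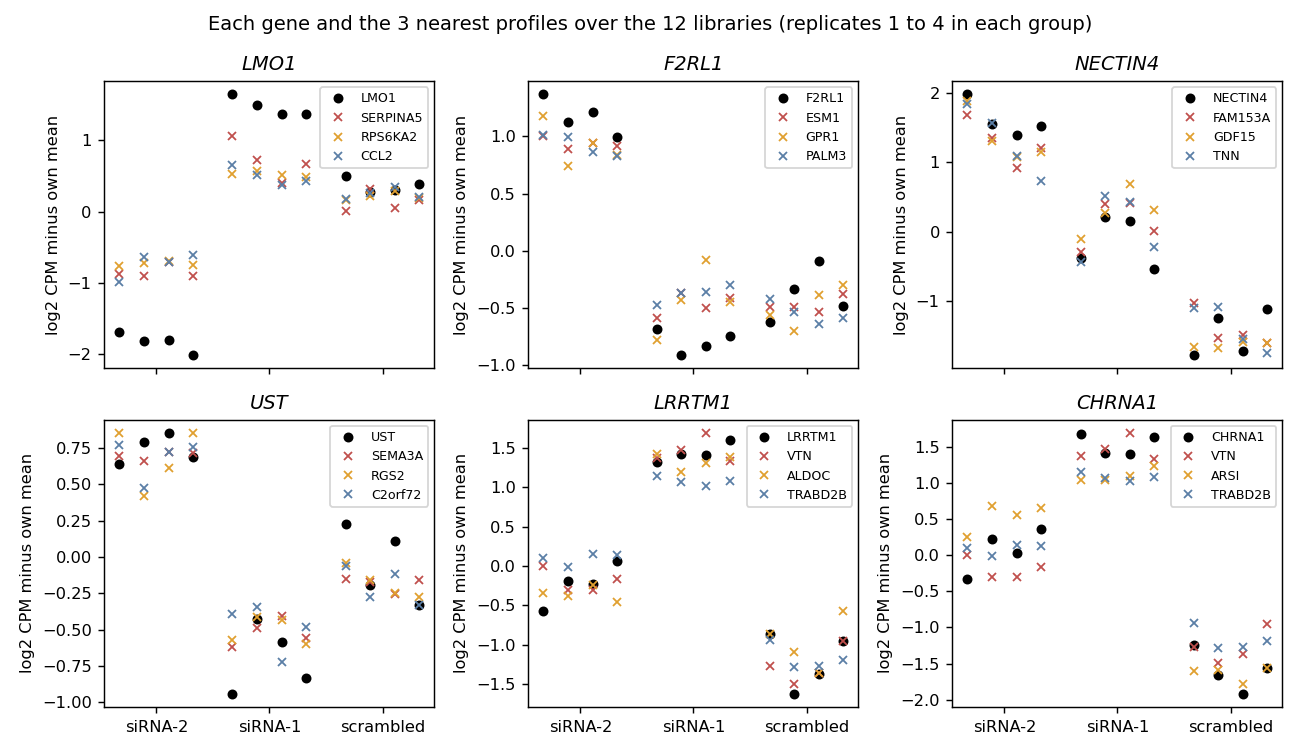
Log2 CPM minus the gene's own mean (vertical axes) of each of the 6 genes (black dots) and its 3 nearest genes (coloured crosses) in siRNA-2, siRNA-1 and scrambled libraries, 4 each. Crosses lie close to the dots for UST and LRRTM1, and nearer to 0 than the dots for LMO1 in siRNA-2 and siRNA-1 libraries.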

How the data were processed

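RNA sequencing of A172 cells gave 1 table of whole-number read counts per interval, deposited by the authors with no normalization, for 49731 intervals. The submitters' processing notes name Salmon and the hg38 build, with no version or role. The counting program, the strand setting and the annotation release were not given in the sources used here. Of the gene intervals 43708 were used. Left out were 962 ultraconserved and control regions and 5061 gene intervals, among them 2074 that extend more than 100 kb past the gene they are named for, 2589 under an older name of another interval's gene, 258 whose counts repeat another interval's in each library and 48 of ribosomal RNA.

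Samples were grouped by the treatment in the labels. Genes were tested on the deposited counts with edgeR 4.0.16 (R 4.3.3): TMM scaling, low counts filtered by filterByExpr at 10 reads (15 in total), group as the single term of a robust quasi-likelihood model over the 12 libraries, two-sided tests, and Benjamini-Hochberg adjustment over 24644 genes with a threshold of 0.05. SE was taken as the log2 fold change over the root of F, without sign. The CTNNA2 stretch outside LRRTM1 was compared by exact permutation (scipy 1.17.1). The fit was tested on simulated data. Depth was 42951911 to 53148746 reads. Libraries of a group differed by more than sampling noise, so none was counted as a repeat.

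The 6 genes, the lists around them and the tests were chosen with earlier results of these data known. Named besides the 6 were up to 3 genes of each list with the smallest adjusted p past the threshold between the siRNAs, tested paralogs, the 3 nearest profiles (average log2 CPM at least 1), the nearest tested protein-coding gene on each side, and overlapping intervals. The genes ranked beside the 6, F10, CADM3 and SLITRK6 in the plot, and HS2ST1, CHRND, CHRNG, RAPSN and CHRNB1 were named after their values were seen. Alternatives were DESeq2 (1.42.0) size factors and its Wald test, other filters on low counts, protein-coding genes alone, the compared groups alone, the replicate number as a block, and libraries left out singly or 3 together. No pairing of the samples by replicate number was seen in the counts, which cannot show how the samples were handled.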

Additional observations from a re-analysis of the deposited data

Results flagged for a closer look

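Among the 104 related genes tested, FLRT2 and CHRNE were the 2 called in opposite directions against scrambled siRNA by the siRNAs, beside 1.76% of all 24644 genes tested (433 genes). The 2 of 104 lie near that share, so nothing is read from their number. FLRT2, which encodes a leucine-rich adhesion protein, had log2 fold changes of 0.34 for siRNA-2 and -0.51 for siRNA-1 against scrambled, and the difference between the siRNAs, 0.85 (SE 0.08), was past the threshold in edgeR's quasi-likelihood test (adjusted p = 2.14e-08). CHRNE, a muscle receptor subunit gene, had 0.29 for siRNA-2 and -0.38 for siRNA-1, with a difference of 0.67 (SE 0.04, adjusted p = 3.38e-13), and its interval overlaps MINK1. The comparisons share the scrambled libraries. No library of the 6 genes stood apart from the other 3 of its group beyond Dixon's 95% limit, in 18 groups looked at.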

How the results depend on the processing

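The comparisons were rerun under 20 alternatives (19 for the mean of both siRNAs, which needs all 3 groups). The filter of 1 CPM in 4 libraries left no value for CHRNA9, CHRNA10, CHRNB3, F2RL2, GATA3, LRRTM3, REG1A and S100Z. Genes called ranged from 6471 to 8274 for siRNA-2 against siRNA-1, from 10131 to 13990 for siRNA-2 against scrambled, from 9722 to 13279 for siRNA-1 against scrambled and from 10352 to 14567 for the mean. Of the 6 genes, 5 were called against the midpoint in each, and between 36 and 48 related genes were called (45 as reported). Each pairwise log2 fold change of the 6 kept its sign and moved by less than 1 SD between replicates. Without siRNA-2 replicate 2, siRNA-1 replicate 3 and scrambled replicate 1 together, siRNA-2 against siRNA-1 gave -3.38 for LMO1, 2.01 for F2RL1, 1.88 for NECTIN4, 1.47 for UST, -1.68 for LRRTM1 and -1.53 for CHRNA1. Leaving out single libraries, UST against the midpoint ranged from -0.02 to 0.13, LRRTM3 between the siRNAs from -0.67 to 0.06 and S100Z from -0.16 to 0.24, and S100Z had 0.01 without the 3 libraries. The cause was not tested. Same-numbered libraries of different groups had correlations of -0.118 to 0.097, so no pairing by number was seen. A low correlation cannot show that same-numbered libraries were handled apart. With the replicate number as a block, 8024 genes were called between the siRNAs against 8097 without it, and 46 related genes against 45. CHRNA1 and NECTIN4 rest on as few as 19 and 30 reads in a scrambled library, and the LMO1 stretch outside nested intervals on as few as 11 with siRNA-2. uc.110 itself held too few reads to show whether either siRNA lowered it.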
